A study of Mus musculus with 830 samples.

Results

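Irx1, Irx2 and Etv1, transcription factors known from alpha cells, were followed in 830 single endoderm cells of mouse embryos of 15 to 27 somites. They are 3 of the 26313 genes listed in the read count table and were taken by name, not by a threshold on their values. The study follows lineages during endoderm organ formation and used 3 reporter genotypes of Neurog3 (Ngn3), all with the strain label C57BL/6XC3H. HZ cells (Ngn3-GFP/+, 326 cells) carried GFP on 1 Neurog3 allele and HM cells (Ngn3-GFP/GFP, 171 cells) carried it on both. Ngn3Cre cells (Ngn3-Cre; Ai6, 333 cells) carried a Cre recombinase under Neurog3 control with the Ai6 reporter, which marks cells that have expressed the Cre and their descendants. All groups were stained for EpCAM, an epithelial surface protein, and sorted, and each group holds a mixture of cell types. The sources used here do not say whether sorting also used the reporter. Stages were given in somites: 15, 18, 21, 24 and 27 for HZ and HM, and 18, 21, 24 and 27 for Ngn3Cre.

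Neurog3, a basic helix-loop-helix (bHLH) protein, commits progenitors of the pancreas and gut to an endocrine fate. It is expressed transiently, and its descendants switch on hormone genes such as Gcg, which encodes glucagon, the hormone of alpha cells. The first glucagon cells of the mouse appear very early in the pancreatic bud, long before most insulin cells. Irx1 and Irx2 are Iroquois homeodomain factors that are enriched in alpha cells of the mature islet. Etv1 is an ETS-domain activator of the PEA3 group, whose members are known as effectors of receptor tyrosine kinase and ERK signalling.

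In GRCm38 (GENCODE vM21), Irx1 lies on chromosome 13 from 71957921 to 71963723 on the minus strand (ENSMUSG00000060969.9). Irx2 lies on the same chromosome from 72628820 to 72634198 on the plus strand (ENSMUSG00000001504.10), 665096 bases away. Etv1 lies on chromosome 12 from 38779380 to 38870484 on the plus strand (ENSMUSG00000004151.17). No other annotated gene overlaps any of them. Start regions are shown because the comparisons below vary Neurog3 alleles, and they were searched for E-boxes (CANNTG), the class of site that bHLH factors bind. RefSeq promoter windows of 250 bases before to 50 bases after the start were found for 2 of the members (GRCm38.p6), and E-boxes are in capitals below.
Irx2, chr13:72628570-72628869, plus strand: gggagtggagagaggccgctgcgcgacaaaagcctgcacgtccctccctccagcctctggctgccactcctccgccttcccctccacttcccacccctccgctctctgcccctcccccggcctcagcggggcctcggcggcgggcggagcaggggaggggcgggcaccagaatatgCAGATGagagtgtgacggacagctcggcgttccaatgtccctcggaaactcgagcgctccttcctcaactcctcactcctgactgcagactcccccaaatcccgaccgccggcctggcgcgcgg
Etv1, the start at chr12:38783461-38783760, plus strand: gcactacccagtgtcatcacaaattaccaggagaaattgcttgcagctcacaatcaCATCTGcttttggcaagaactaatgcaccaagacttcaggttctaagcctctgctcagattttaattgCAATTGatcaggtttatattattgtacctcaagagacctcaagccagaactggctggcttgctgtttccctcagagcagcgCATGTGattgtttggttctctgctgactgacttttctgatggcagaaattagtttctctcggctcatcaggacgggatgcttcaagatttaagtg
The Irx2 window held 1 E-box, which was also a match to CAGATG, and the Etv1 window held 3, of which 1 matched CAGATG (here CATCTG, on the other strand). The other RefSeq start of Etv1 (chr12:38779832-38780131) held none of these letters. CANNTG reads alike on both strands, and a CAGATG match is always also a CANNTG match. Both are common letters, since 72.3% of 32851 promoter windows of 300 bases held CANNTG and 17.2% held CAGATG on either strand. None of the 3 windows held ACANNTGT, an Iroquois site, or CCGGAA, an ETS site, which were in 7.4% and 14.9% of all windows. The Irx2 window had 69.0% GC, against a median of 52.7%.

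Cells had a median of 452597 reads and 7490 detected genes (378157 reads in HZ, 626967 in HM and 465918 in Ngn3Cre). Since no embryo is named, the reads of all cells of 1 genotype and stage were summed into a pool, and the 11 pools of 10 or more cells (8299225 to 70763553 reads) were tested. The number of embryos behind a pool is not given, so a p-value here weighs a difference against its variation from stage to stage. Neurog3 itself stood at 79.35 to 132.5 CPM (counts per 1e6 reads) over the HZ pools and 6.18 to 11.1 CPM over the HM pools. Markers of other cell types differed between groups. The summed endocrine markers (9 of 9 detected at 1 CPM in each genotype) spanned 61.0 to 545 CPM over HM pools, 804 to 13080 CPM over HZ pools and 12990 to 23260 CPM over Ngn3Cre pools. The summed neural and neural crest markers reached 1478 CPM in Ngn3Cre, against at most 351 CPM in HZ and 251 CPM in HM, with 10, 9 and 8 of 10 detected and Foxd3 at 0 reads in HM. Summed hepatic markers spanned 54.3 to 4216 CPM over HZ pools, 82.1 to 8215 CPM over HM pools and 53.0 to 120.5 CPM over Ngn3Cre pools. Intestinal markers spanned 27.1 to 81.4, 49.7 to 163 and 5.12 to 14.5 CPM, and markers of pancreatic progenitors 56.6 to 356, 217 to 353 and 74.8 to 82.7 CPM, in the same order. Their part in the results below was not tested except where values without those cells are given.

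Irx1 was higher at each later stage in the HZ pools and low in every HM pool. In HZ it stood at 34.8 CPM at 18 somites, 86.3 at 21, 124 at 24 and 261 at 27. In HM it stood at 10.2 CPM at 15 somites, 2.04 at 18, 8.00 at 21 and 25.8 at 24. The highest HM pool thus lay below the lowest HZ pool. Ngn3Cre pools held 268 CPM at 21 somites, 230.5 at 24 and 258.5 at 27, all above HZ of the same stage except at 27 somites. The share of cells with Irx1 at 10 CPM or more was 62.3% of HZ cells (203 of 326, exact 95% binomial interval 56.8 to 67.6%), 22.8% of HM cells (39 of 171, 16.8 to 29.8%) and 86.5% of Ngn3Cre cells (288 of 333, 82.3 to 90.0%). All intervals here are exact binomial, cover counting error only and say nothing of the spread between embryos. Shares per genotype pool all stages, which the genotypes hold in unlike numbers. For Irx1 the HZ and Ngn3Cre shares were 60.4 and 91.5% at 21 somites and 75.3 and 84.5% at 24. At 27 somites the order was reversed, with 96.2% in HZ and 87.0% in Ngn3Cre.

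Irx2 differed from Irx1 in its course over the HM pools. In HZ it stood at 42.4 CPM at 18 somites, 98.9 at 21, 135 at 24 and 144 at 27. In HM it stood at 29.7 CPM at 15 somites, 13.7 at 18, 3.87 at 21 and 6.72 at 24, and at 28.3 CPM without scaling in the 4 HM cells of 27 somites, a pool that was not tested. No tested HM pool reached a tested HZ pool. The Ngn3Cre pools, with 201.5, 215 and 237 CPM at 21, 24 and 27 somites, lay above every HZ pool. Irx2 was found in 58.0% of HZ cells (189 of 326), 15.8% of HM cells (27 of 171) and 79.3% of Ngn3Cre cells (264 of 333). By stage, the HZ and Ngn3Cre shares were 60.4 and 88.7% at 21 somites, 64.7 and 74.8% at 24, and 73.1 and 76.8% at 27.

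Etv1 was the rarest of the 3 and nearly absent from the earliest HZ pool tested. In bulk sums like these, fewer cells with a gene and less RNA per cell cannot be told apart, and shares of cells are therefore given as well. In HZ it stood at 1.02 CPM at 18 somites, 19.35 at 21, 38.3 at 24 and 67.6 at 27. The first value comes from 25 reads, and 2 of 61 cells had the gene. HM pools held 1.32, 0.0885, 0.626 and 4.64 CPM at 15, 18, 21 and 24 somites, so the groups overlapped at the earliest HZ stage only. Ngn3Cre held 58.4 CPM at 21 somites, 99.9 at 24 and 90.9 at 27. Shares of cells were 26.4% in HZ (86 of 326), 7.02% in HM (12 of 171) and 54.7% in Ngn3Cre (182 of 333). Stage by stage, the HZ and Ngn3Cre shares were 20.8 and 50.0% at 21 somites and 40.0 and 56.8% at 24. At 27 somites the order was reversed, with 73.1% in HZ and 59.4% in Ngn3Cre.

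**Figure D1:**
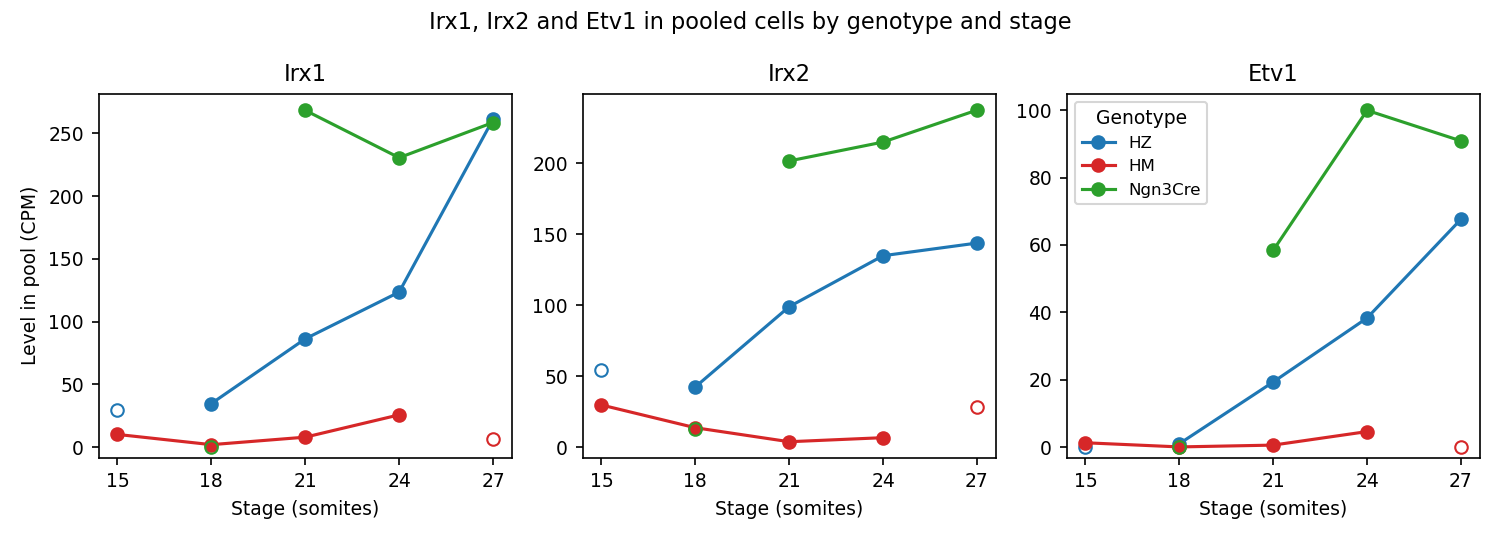
Level of Irx1, Irx2 and Etv1 (y axis, CPM; each panel has its own scale) by stage (x axis, somites) in pools of HZ, HM and Ngn3Cre cells. Filled points are the 11 tested pools with TMM scaling and open points the 3 pools under 10 cells without it; HM pools stay at or below 29.7 CPM for Irx1 and Irx2, while HZ pools climb from 34.8 to 261 CPM for Irx1.

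Per length, on the scale of the deposited TPM, which divides reads by gene length, the members could be set against each other. Irx1 averaged 110.2 ± 73.6 TPM (SD, n = 4 pools) in HZ, Irx2 88.5 ± 42.3 TPM and Etv1 16.5 ± 14.1 TPM. In Ngn3Cre they averaged 202.5 ± 14.7, 154 ± 2.37 and 35.4 ± 8.86 TPM (SD, n = 3 pools). The TPM of Irx1 and Irx2 overlapped in HZ, where Irx1 was the higher in 1 of 4 pools, and Irx1 was the higher in 3 of 3 Ngn3Cre pools and 6 of all 11. Both exceeded Etv1 in 11 of 11 pools.

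The contrast of HM with HZ asks how these factors fare when both Neurog3 alleles carry GFP. All 3 members were called lower in HM, where 1.38% of 18420 genes tested were called lower and 0.0923% higher. Etv1 fell by 3.94 ± 0.51 on the log2 scale (SE; edgeR quasi-likelihood test, adjusted p = 0.00582), Irx2 fell by 3.65 ± 0.55 (adjusted p = 0.0121) and Irx1 fell by 3.29 ± 0.43 (adjusted p = 0.00646). For Irx1 and Irx2 every HM pool lay below every HZ pool, as did 5.23% of the genes tested. The summed endocrine, hepatic and intestinal markers also differed between these groups (above), and their part was not tested. Genotype and stage were both terms of the fit. HM and HZ share the tested stages of 18, 21 and 24 somites, and HZ at 27 somites enters through the stage it shares with Ngn3Cre. The call was lost for Irx2 without the HM pool of 24 somites (log2 change -3.28, adjusted p = 0.0578), for Irx2 with only the pools of HM and HZ (adjusted p = 0.0537), and for Irx2 and Etv1 when the 3 small pools were added (adjusted p = 0.152 and 0.197). With limma on mean log2 TPM none of the 3 passed (adjusted p = 0.0572 to 0.215).

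HM was lower both in how many cells held the factors and in the level within those cells. Among cells of 100000 or more reads with Irx1 at 10 CPM or more, the median was 22.5 CPM in 38 HM cells and 144 CPM in 187 HZ cells. For Irx2 it was 31.7 CPM in 26 HM cells and 180 CPM in 173 HZ cells. For Etv1 it was 33.4 CPM in 10 HM cells and 72.95 CPM in 80 HZ cells. The median HM cell had more reads than the median HZ cell. The HM cells also differed in what else they held. Of the 38 HM cells with Irx1, 22 had Cdx2, the caudal factor of the intestine, and 14 had Isl1, an endocrine LIM-homeodomain factor, whereas among the 187 HZ cells 18 had Cdx2 and 167 had Isl1. Of the 10 HM cells with Etv1, 9 had Isl1 and 9 had Neurod1, the bHLH factor downstream of Neurog3, and 0 of them had Cdx2 at 10 CPM or more.

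Among cells low in both reference genes, HM gave smaller shares than HZ at 21 and 24 somites, but this cut does not match the groups. In cells under 50 CPM of Neurog3 and under 100 CPM of Gcg, Irx1 was found at 21 somites in 9 of 35 HM cells against 31 of 70 HZ cells, and at 24 somites in 20 of 71 against 20 of 35. Irx2 was found in 3 of 35 and 27 of 70 cells at 21 somites, and in 10 of 71 and 16 of 35 at 24. Etv1 was found in 2 of 35 and 16 of 70 cells at 21 somites, and in 8 of 71 and 7 of 35 at 24. At 18 somites the direction was not shared, with Irx1 in 2 of 15 HM and 8 of 31 HZ cells but Irx2 in 4 of 15 HM and 5 of 31 HZ cells. Over all stages, Neurog3 reached 50 CPM in 1 of 143 HM cells and 102 of 281 HZ cells of the depth used here. The cut thus kept nearly all HM cells and took out many HZ cells. It cannot show how HM and HZ cells of a like state compare. These are descriptions of cells with no test.

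The comparison of Ngn3Cre with HZ sets the Cre lineage reporter beside the GFP reporter. None of the 3 members was called, where 0.00543% of the genes tested were called higher and 0.331% lower. The estimates were all above 0. Etv1 had a log2 change of 1.16 ± 0.40 (SE; edgeR adjusted p = 0.291), Irx2 of 1.07 ± 0.43 (adjusted p = 0.392) and Irx1 of 0.76 ± 0.39 (adjusted p = 0.552). For 1 of the 3, Irx2, every Ngn3Cre pool exceeded every HZ pool, as did 8.65% of the genes tested. Ngn3Cre also held most cells with neural genes, and the share of Ngn3Cre cells with Irx2 was 87.3% without them, against 79.3% with them.

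No member passed the test for change with stage over the 3 genotypes together. The slope was 0.20 ± 0.06 log2 units per somite for Irx1 (SE; edgeR adjusted p = 0.443), 0.35 ± 0.11 for Etv1 (adjusted p = 0.407) and -0.05 ± 0.08 for Irx2 (adjusted p = 0.911). In that fit edgeR called 0% of the genes tested, although 1575 had an unadjusted p under 0.05. DESeq2 called 159 genes lower and 196 higher with stage but none of the members. For Irx2, whose values over the tested pools were lowest at the first HZ stage and highest at the first HM stage, HM and HZ had a difference in slope of -0.45 ± 0.09 (SE; edgeR unadjusted p = 0.000822), which missed the threshold after adjustment (adjusted p = 0.462). For Irx1 and Etv1 the difference in slope was -0.13 ± 0.13 and -0.28 ± 0.25 (adjusted p = 0.825 and 0.791).

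The order of the factors relative to Neurog3 and Gcg was read from 713 cells of 100000 or more reads, split at 50 CPM of Neurog3 and 100 CPM of Gcg. Each cell is a snapshot, so shares by state do not follow any 1 cell through time, and since states were cut from measured values no test was made. HM gave 137 of its 143 cells to the state with neither gene, and the order therefore rests on HZ and Ngn3Cre. A cell called without Gcg here is under 100 CPM, and 60.0% of the HZ and 74.0% of the Ngn3Cre cells with Neurog3 and without Gcg had Gcg at 10 CPM or more. Gcg at that level was also found in cells with neural crest genes (below). In both genotypes, Irx1 and Irx2 were present in most cells with Neurog3 and without Gcg. Among the 90 HZ cells, Irx1 was found in 84.4% (75.3 to 91.2%), Irx2 in 85.6% (76.6 to 92.1%) and Etv1 in 23.3% (15.1 to 33.4%). Among 32 HZ cells with Gcg and no Neurog3, the shares were 100.0% (89.1 to 100.0%), 93.8% (79.2 to 99.2%) and 78.1% (60.0 to 90.7%). Of the 3 factors, Etv1 differed most between these states in HZ. These shares pool all stages. In HZ cells with Neurog3 and no Gcg, Etv1 was in 1 of 17 at 18 somites, 11 of 52 at 21 and 6 of 16 at 24. In those with Gcg and no Neurog3 it was in 3 of 6 at 21 somites and 14 of 16 at 24.

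Where Gcg had to be under 10 CPM, a setting added after the values were seen, 36 HZ cells with Neurog3 had Irx1 in 88.9%, Irx2 in 91.7% and Etv1 in 19.4%. In 19 Ngn3Cre cells of that kind the shares were 94.7, 94.7 and 63.2%.

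Ngn3Cre cells also had Irx1 and Irx2 in most Neurog3 cells without Gcg, and Etv1 differed less between the states. In 73 cells with Neurog3 and no Gcg, Irx1 was found in 90.4%, Irx2 in 91.8% and Etv1 in 56.2% (44.1 to 67.8%). In 130 cells with Gcg and no Neurog3 the shares were 93.8%, 85.4% and 73.8% (65.4 to 81.2%). The cells with both genes, 12 in HZ and 41 in Ngn3Cre, had Etv1 in 33.3% and 48.8%. Cells with neither gene had the lowest share of each factor in both genotypes, for example 46.3% for Irx1, 38.1% for Irx2 and 20.4% for Etv1 of 147 HZ cells.

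**Figure D2:**
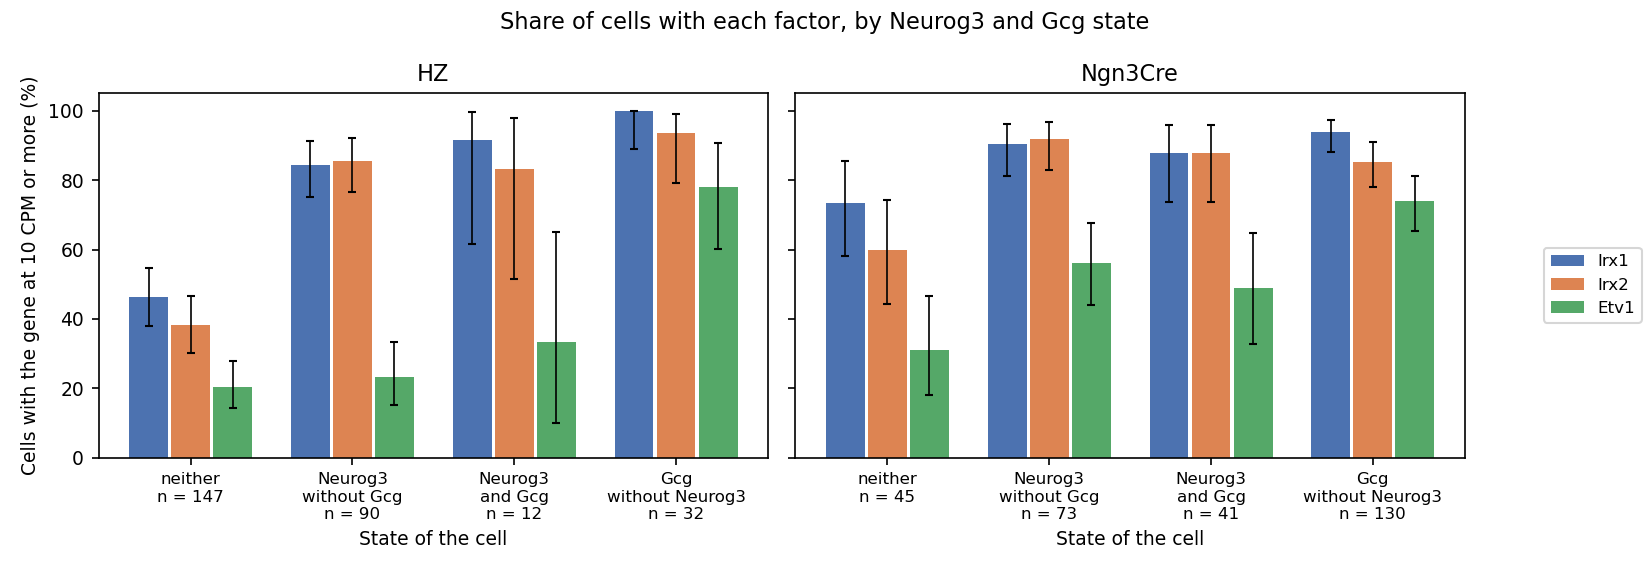
Share of cells with Irx1, Irx2 or Etv1 at 10 CPM or more (y axis, percent) in the 4 states cut at 50 CPM of Neurog3 and 100 CPM of Gcg (x axis, with the number of cells), for HZ and Ngn3Cre. All stages are pooled. Error bars are exact 95% binomial intervals for counting error; the Irx1 and Irx2 bars are at 83.3% or more in all states with Neurog3 or Gcg, and the Etv1 bar of HZ goes from 23.3% to 78.1%.

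Counted cell by cell over HZ and Ngn3Cre (570 cells), 216 cells had Neurog3 at 50 CPM or more. Irx1 was in 189 of them (87.5%), Irx2 in 190 (88.0%) and Etv1 in 86 (39.8%). Of the 215 cells with Gcg at 100 CPM or more, 201 had Irx1 (93.5%), 187 had Irx2 (87.0%) and 145 had Etv1 (67.4%). With Gcg counted from 100 CPM and the factors from 10 CPM, 243 cells had Irx1 without Gcg and 14 had Gcg without Irx1. For Irx2 these were 227 and 28 cells, and for Etv1 106 and 70. These counts depended on the unequal thresholds. With Gcg also counted from 10 CPM, they were 84 and 61 cells for Irx1, 76 and 83 for Irx2, and 31 and 201 for Etv1. At 10 CPM, Gcg was also found in 39 of 40 Ngn3Cre and 4 of 10 HZ cells with the neural crest factors Sox10 or Tlx2 at 50 CPM. It was found in 69 of 69 Ngn3Cre and 26 of 26 HZ cells of 27 somites. The counts at 10 CPM therefore do not give the order of Etv1 and Gcg. Against Neurog3, counted from 50 CPM, 165 cells had Etv1 without Neurog3 and 130 had Neurog3 without Etv1. For Irx1 these were 255 and 27 cells, and for Irx2 224 and 26. With Neurog3 also counted from 10 CPM, they were 127 and 167 cells for Etv1, 186 and 33 for Irx1, and 165 and 42 for Irx2. Which of the Etv1 counts was larger thus depended on the Neurog3 threshold.

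How clear the step of Etv1 was depended on the Gcg threshold and on which cells entered. Pool by pool, the share with Etv1 in Gcg cells minus that in Neurog3 cells without Gcg averaged 5.95 ± 27.4 percentage points (SD, n = 5 pools) at 100 CPM of Gcg. It was positive in 4 of 5 pools and -34.7 in Ngn3Cre at 27 somites, where only 5 cells had Neurog3 without Gcg. At 1000 CPM of Gcg it averaged 38.2 ± 9.82 points (SD, n = 6 pools) and was positive in 6 of 6 pools, from 28.4 to 56.0. At 50 CPM it averaged 18.5 ± 13.5 points (SD, n = 4 pools) and at 100 CPM without cells with neural genes 20.2 ± 17.7 (SD, n = 4 pools), each positive in 4 of 4. With cells under 100000 reads included it was -0.23 ± 29.2 (SD, n = 5 pools). With Neurog3 from 10 CPM it was 5.89 ± 26.6 (SD, n = 6 pools), positive in 4 of 6. With Etv1 from 20 CPM it was 7.6 ± 35.7 (SD, n = 5 pools), positive in 3 of 5. Thinned to 100000 reads it was 11.3 ± 23.6 (SD, n = 6 pools), positive in 5 of 6. The pools with enough cells differed between these settings. The settings positive in 4 of 4 pools had no value under 7.54 points, so the -34.7 was not among theirs. At 1000 CPM the difference was 7.58 ± 6.12 points for Irx1 and 15.4 ± 11.4 points for Irx2 (SD, n = 6 pools), against 0.17 ± 5.41 and -1.35 ± 11.5 points at 100 CPM (n = 5 pools). Cells between 100 and 1000 CPM included cells with neural crest genes, and whether these were of another type was not tested. Of 40 Ngn3Cre cells with Sox10 or Tlx2 at 50 CPM, factors of the neural crest and its derivatives, 21 had Gcg at 100 CPM or more and 0 had it at 1000 CPM. Of 10 such HZ cells, 1 reached 100 CPM.

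At 1000 CPM of Gcg, levels were compared in the same way. In summed reads, Etv1 was higher in the Gcg cells than in the Neurog3 cells of the same pool in 6 of 6 pools, by 1.82 to 5.55 times. In HZ at 24 somites, for example, 14 Gcg cells held 112 CPM and 19 Neurog3 cells 37.3 CPM. Irx1 was higher by 1.26 to 3.12 times and Irx2 by 1.09 to 4.99 times, with the largest ratio of each in HZ at 27 somites (8 cells on each side). The median ratio over pools was 1.42 for Irx1, 1.55 for Irx2 and 2.71 for Etv1. At 100 CPM of Gcg, each factor was higher in the Gcg cells in 4 of 5 pools only. The ratios were then 0.86 to 3.25 for Etv1 (median 2.13), 0.97 to 1.39 for Irx1 (median 1.07) and 0.95 to 1.59 for Irx2 (median 1.18).

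Along the Gcg level itself, Etv1 was most common in the bins where Neurog3 was rarest. In HZ, Etv1 was found in 13.7% of 124 cells under 10 CPM of Gcg, 30.1% of 113 cells from 10 to 100, 31.2% of 16 cells from 100 to 1000, 76.9% of 13 cells from 1000 to 10000 and 93.3% of 15 cells above. Neurog3 at 10 CPM or more was found in 39.5, 68.1, 75.0, 30.8 and 13.3% of the same cells. In Ngn3Cre, Etv1 was found in 56.0% of 25 cells in the lowest bin, 39.7% of 78 cells from 100 to 1000 and 95.8% of 71 cells at 10000 CPM or more. Irx1 was found in 22 of 22 and 71 of 71 Ngn3Cre cells of the top 2 bins and in 13 of 13 and 15 of 15 HZ cells, and Irx2 was missing from 1 of these cells, in Ngn3Cre. From 1000 to 10000 CPM of Gcg, Etv1 was found in 10 of 13 HZ and 17 of 22 Ngn3Cre cells. All stages are pooled in these bins. In HZ pools Gcg went from 4.46 CPM at 18 somites to 10020 at 27, and Etv1 was also higher at each later stage (above). The part of stage in these shares was not tested.

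**Figure D3:**
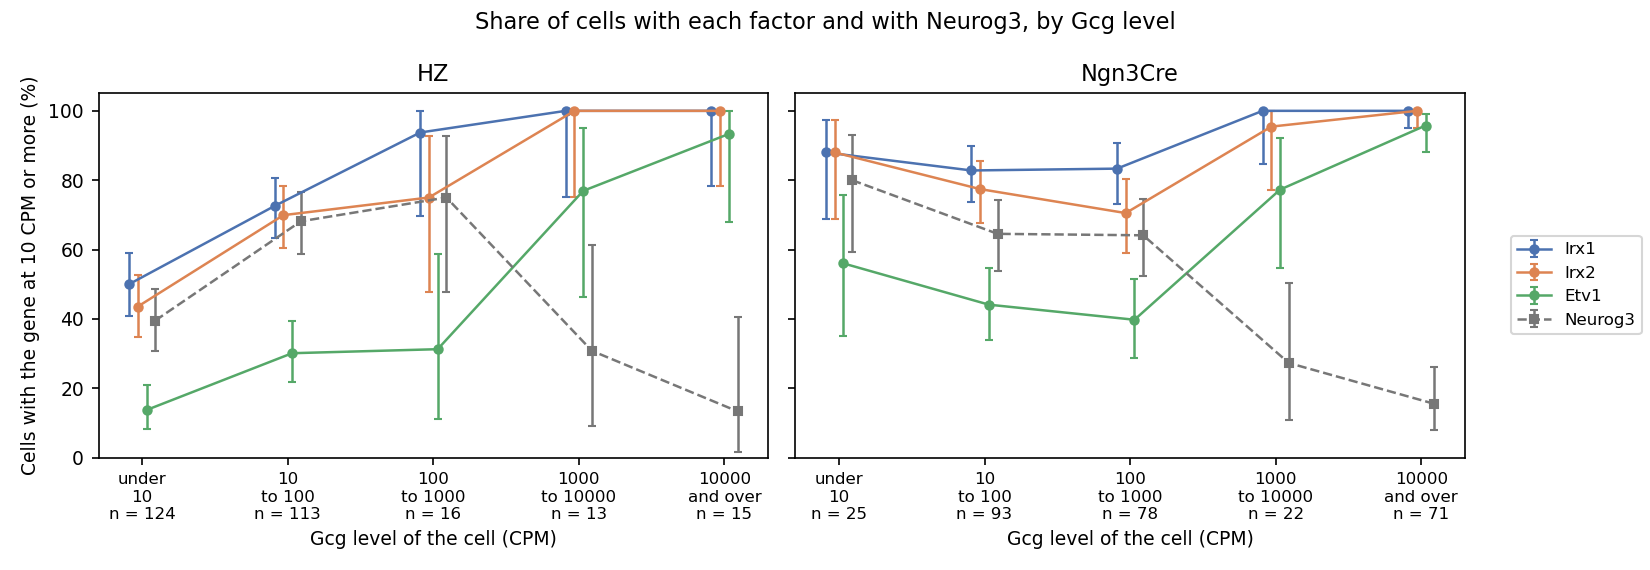
Share of cells with Irx1, Irx2, Etv1 or Neurog3 at 10 CPM or more (y axis, percent) by the cell's Gcg level (x axis, CPM, with the number of cells) in HZ and Ngn3Cre. All stages are pooled. Error bars are exact 95% binomial intervals for counting error; Etv1 steps from 31.2% to 76.9% in HZ and from 39.7% to 77.3% in Ngn3Cre between 100 to 1000 and 1000 to 10000 CPM of Gcg, where the Neurog3 share is lower.

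Along Neurog3, among cells under 100 CPM of Gcg, the Iroquois factors were also present at 10 to 50 CPM of Neurog3. In HZ, Irx1 was found in 33.3% of 111 cells under 10 CPM of Neurog3, 86.1% of 36 cells from 10 to 50, 85.3% of 34 cells from 50 to 200 and 83.9% of 56 cells above. Irx2 followed with 27.0, 72.2, 88.2 and 83.9%. Etv1 was found in 14.4, 38.9, 29.4 and 19.6% of these cells. Cells of the low bin may stand before or after the peak of Neurog3, and the counts alone do not tell which. In Ngn3Cre the same bins, of 38, 7, 17 and 56 cells, had Etv1 in 31.6, 28.6, 70.6 and 51.8%, so its share did not run as in HZ. Irx1 was found there in 68.4, 100.0, 100.0 and 87.5%, and Irx2 in 55.3, 85.7, 94.1 and 91.1%. These bins pool all stages and were chosen after the values were seen.

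Some cells held a member with neither reference gene. Among 75 HZ cells under 10 CPM of both Neurog3 and Gcg, 19 had Irx1. Of these, 3 had a neural gene, 6 had Neurod1, Fev or Ghrl at 50 CPM (genes of cells past Neurog3) and 10 had none of these. For Irx2 there were 12 cells, of which 4 had none of these, and for Etv1 there were 7, of which 3 had none. In HM, 18 of 68 such cells had Irx1, with 13 having none of these other genes, and 3 had Etv1. Among 5 Ngn3Cre cells without both references, 3 had Irx1, and none of them lacked the other genes.

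**Figure D4:**
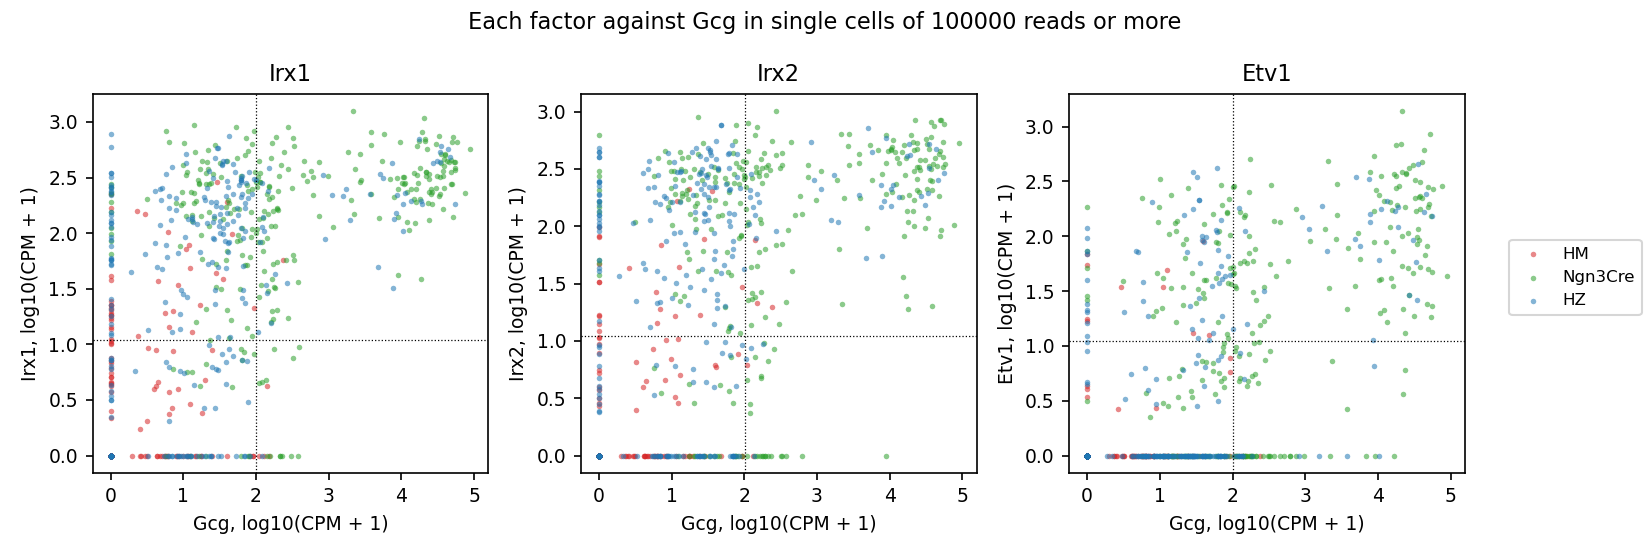
Level of each factor (y axis) against Gcg (x axis), both as log10(CPM + 1), in 713 single cells coloured by genotype; each point is 1 cell. Dotted lines mark 10 CPM of the factor and 100 CPM of Gcg; Irx1 reaches 938 CPM and Irx2 896.5 CPM to the left of the Gcg line, and their highest cells, at 1261 and 1018 CPM, lie to its right.

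Cells with Etv1 mostly also had the Iroquois pair. Over the 570 HZ and Ngn3Cre cells, with or without Etv1, 444 had Irx1 and 414 had Irx2. Both were in 385 cells, which is 86.7% of the cells with Irx1 and 93.0% of those with Irx2. Of the 251 cells with Etv1, 243 also had Irx1 (96.8%) and 234 had Irx2 (93.2%), and 54.7% of the Irx1 cells had Etv1. All 3 were found in 60 of 163 cells with Neurog3 and no Gcg (36.8%), 22 of 53 cells with both (41.5%) and 118 of 162 cells with Gcg alone (72.8%). Etv1 without either Iroquois gene was found in 6 of the 570 cells. In HM, 9 of 10 Etv1 cells had Irx1 and 2 of 10 had Irx2.

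As descriptions across cells that share depth and sorting, the log2(CPM + 1) values of Irx1 and Irx2 had a Pearson r of 0.74 over those 570 cells, Irx1 and Etv1 of 0.52 and Irx2 and Etv1 of 0.45. In the 143 HM cells the values were 0.27, 0.50 and 0.11. The genes most like Irx1 over all 713 cells were Isl1 (r = 0.77), Irx2 (0.76), the amino acid transporter Slc38a5 (0.76) and Celf3 (0.73), out of 12576 genes. For Irx2 they were Slc38a5 (0.82), Ptprn2 (0.77), Baiap3 (0.77) and Vwa5b2 (0.76). For Etv1 they were Pcsk2, the prohormone convertase that cuts proglucagon (0.71), Slc7a14 (0.67), Pax6 (0.65), Pou3f4 (0.64) and Pyy (0.64). Gcg stood at 0.61 with Etv1, 0.55 with Irx1 and 0.53 with Irx2, and Neurog3 stood at 0.00 with Etv1, 0.27 with Irx1 and 0.33 with Irx2. Over the 11 pools, the highest Spearman values were with Nbas, Celsr3 and Chfr for Irx1 (0.98 to 0.99), Dnajc12, Dzank1 and Abcc8 for Irx2 (0.97 to 1.0) and Gm14703, Itga4 and Sgcb for Etv1 (0.98 to 0.99). The last gene named for each factor was tied with others. Chfr was tied with Neurod1, for example, Abcc8 with Ampd2 and Sgcb with Tmem179. These pools share genotype and stage.

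The factors were also found in cells picked by other genes. In 65 HZ and 40 Ngn3Cre cells with Ghrl, the ghrelin gene, at 1000 CPM and Gcg under 100 CPM, Irx1 was found in 59 and 37 cells, Irx2 in 61 and 37, and Etv1 in 20 and 15. In 54 cells with Sox10 or Tlx2, of any genotype, Irx1 was found in 37 (68.5%), Irx2 in 19 (35.2%) and Etv1 in 16 (29.6%). For comparison, 20 cells had the hepatic genes Afp and Apoa1 at 1000 CPM (median 1162440 reads), of which 9 were HZ, 11 HM and 0 Ngn3Cre. They had Irx1 in 8 cells, Irx2 in 1 and Etv1 in 0 (0 to 16.8%), at 12.3, 2.16 and 0 CPM in summed reads. Whether these values are background was not tested. In 132 cells with Cdx2 at 50 CPM (median 682936 reads), Irx1 was found in 19.7%, Irx2 in 15.9% and Etv1 in 2.27%. In 27 cells with Pdx1, the pancreatic progenitor factor, and without Neurog3 or Neurod1, the counts were 3, 5 and 0 cells. Of the HM cells in the Cdx2 set, 15 of 78 had Irx1, 10 had Irx2 and 0 had Etv1. These gates were set after the values were seen.

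No other gene of the Iroquois or PEA3 families passed the test in HM against HZ. Of the 4 other Iroquois genes, 3 could be tested and none was called in HM against HZ, with a median log2 change of -0.03 beside -0.09 over all genes. They were rare: Irx3 was found in 6.75% of HZ cells, Irx5 in 4.29%, and Irx4 in 0 of 326 (0 to 1.13%). Irx4 was seen in 6 of 171 HM cells with 201 reads (adjusted p = 0.167). Of 11 other PEA3 factors and genes of ERK feedback, none was called (median -0.23). Etv5, a close relative of Etv1, stood at a mean of 47.5 ± 11.3 CPM over HZ pools and 47.8 ± 16.1 CPM over HM pools (SD, n = 4 pools each). The smallest p-values were those of the ERK inhibitors Spred3 (log2 change -2.14 ± 0.48, SE, adjusted p = 0.0666) and Spry4 (-3.32 ± 0.82, adjusted p = 0.0995).

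Over all genes tested, 1.38% were called lower in HM and 0.0923% higher. The summed endocrine markers were also lower in HM (above), and their part in the lists was not tested. Of 16 other transcription factors of alpha and endocrine cells, 5 were called lower in HM and none higher (median -3.82). Among them were the POU factor Pou3f4 (39.8 ± 29.9 CPM in HZ and 0.130 ± 0.109 in HM, SD, n = 4 pools each), Pax6 (182 ± 107 and 1.96 ± 1.51), Nkx2-2 (57.9 ± 27.5 and 7.75 ± 6.80) and Insm1 (115.5 ± 33.7 and 10.3 ± 11.1). By state in HZ, Pou3f4 was placed like Etv1, in 21.1% of Neurog3 cells without Gcg and in 71.9% of Gcg cells without Neurog3. Isl1 was placed like Irx1, in 84.4% and 100.0%. Nkx2-2 ran the other way, with 95.6% and 56.2%.

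The lists that follow stand beside the same 1.38% of all genes called lower and 0.0923% called higher. Of 14 alpha cell products, 5 were called lower in HM and none higher (median -3.39): the convertases Pcsk2 and Pcsk1, the granule proteins Chgb and Cpe, and Slc38a5. Slc38a5 fell by 5.91 ± 0.52 on the log2 scale (SE; edgeR adjusted p = 0.000609) and Pcsk2 fell by 7.79 ± 0.87 (adjusted p = 0.0026). Gcg itself did not pass (log2 change -6.54 ± 1.57, adjusted p = 0.0895). Of 11 factors of other islet and pancreatic fates, 10 were tested and only Pax4 was called lower (fell by 7.98 ± 0.57, adjusted p = 0.000269), with a median of 0.21 over the list. Gcg, Slc38a5 and the other genes of these 5 lists were chosen with results of these data known. In Ngn3Cre against HZ and in the change with stage, none of them was called. The smallest p-value in Ngn3Cre against HZ was that of Cpe (log2 change 1.41 ± 0.26, SE, adjusted p = 0.0663).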

How the data were processed

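Per the labels' protocols, tissue was digested with trypsin, live EpCAM-stained cells were sorted and libraries were made by Smart-seq3xpress. The deposited counts are unscaled whole reads for each gene in each cell. The authors deposited TPM for the same cells. The submitters' processing notes name GRCm38 and mm10, HISAT2 2.1.0, Trimmomatic 0.39 and FastQC 0.11.9. Neither the counter and its annotation nor strand, molecular identifiers or cell filters were given in the sources used here.

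Here CPM is reads per 1e6 of a cell's or pool's total. Counts were summed per genotype and stage and 11 of 14 pools (10 or more cells) were tested with edgeR 4.0.16 (R 4.3.3; quasi-likelihood, TMM, filterByExpr, Benjamini-Hochberg at 0.05 over 18420 genes), with genotype and stage as factors, or genotype and somite number for slopes. The SE is the log2 change over the square root of F. Pools of HZ at 15 somites (5 cells), HM at 27 (4) and Ngn3Cre at 18 (3) were left out. The fit was tested on simulated data. Alternatives were DESeq2 1.42.0, limma 3.58.1 on mean log2(TPM + 1) per pool, other scalings, filters, cells and pools. Cells at 10 CPM or more count as having a gene. No doublet caller was run and no 2 cells had identical counts. Of the genes in a family or list, those past the threshold are named, or up to 4 with the smallest p, and per member the 5 most similar genes over cells and 3 over pools. A few genes picked by it are not reported here. The members, lists and thresholds were chosen with earlier results of these data known, and the cell sets by Ghrl, Fev, Cdx2, Pdx1, hepatic or neural genes and the Neurog3 bins after their values were seen.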

Additional observations from a re-analysis of the deposited data

Results flagged for a closer look

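The HZ pool of 15 somites lay outside the tests because it held 5 cells, and it gave a signal for both Iroquois factors. Irx1 stood at 29.5 CPM there (34 reads, in 4 of 5 cells) and Irx2 at 54.7 CPM (63 reads, in 4 of 5 cells), while Etv1 had 0 reads. With 5 cells and 1151800 reads no comparison was made.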

How the results depend on the processing

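No paired analysis was possible because the replicate numbers only name cells and the tests compare pools. All 3 members kept their sign in HM against HZ in 20 of 20 alternatives, and the adjusted p stayed under 0.05 in 19 for Irx1, 16 for Irx2 and 18 for Etv1. It was missed with limma on mean log2 TPM (log2 changes -3.02 for Irx1, -2.95 for Irx2 and -1.14 for Etv1), with all 14 pools (-2.53 for Irx2 and -3.72 for Etv1), with only the pools of the genotypes compared (-3.61 for Irx2) and for Irx2 without the HM pool of 24 somites. Leaving out 1 pool at a time gave -3.97 to -2.96 for Irx1, -4.51 to -3.04 for Irx2 and -5.01 to -3.21 for Etv1. The alternatives are not independent checks. For Irx1, leaving out HM at 15 somites returned the main estimate of -3.29. Leaving out HZ or HM at 18 somites gave -2.98 both times. In Ngn3Cre against HZ no alternative reached the threshold, with 0.18 to 1.15, 0.81 to 1.30 and 0.67 to 1.52 when 1 pool was left out. The slope of Irx2 changed sign with all 14 pools (0.071), with only the pools compared (0.14), with limma (0.034), and without the HM pool of 15 (0.060) or 24 somites (0.014), over a range of -0.13 to 0.060 with 1 pool left out. It passed no test. Those of Irx1 and Etv1 ranged from 0.15 to 0.29 and from 0.25 to 0.48. The causes were not tested.

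Counts over all genes moved more. In HM against HZ, genes called lower numbered 1169 with DESeq2, 37 with all 14 pools, 91 with only the pools compared and 36 with limma, and genes called higher 345, 0, 3 and 74. In Ngn3Cre against HZ, genes called lower numbered 736 with DESeq2, 99 with no filter on low counts, 253 without cells with neural genes, 2 with all 14 pools and 0 with limma. Genes called higher there numbered 303 with DESeq2, 2 with RLE scaling, 2 with library totals, 6 with no filter, 3 with cells of 100000 reads and 2000 genes, 34 without cells with neural genes, 0 with all 14 pools, 22 with only the pools compared and 0 with limma. For slopes, genes called lower and higher numbered 159 and 196 with DESeq2, 34 and 48 with all 14 pools, and 2 and 2 with only the pools compared. With 1 pool left out, the counts ranged from 88 (without HZ at 21 somites) to 294 lower and 0 to 31 higher (without HZ at 18 somites) in HM against HZ. They ranged from 0 (without Ngn3Cre at 21 somites) to 103 lower (without HZ at 27 somites) and 0 to 11 higher in Ngn3Cre against HZ, and from 0 to 0 lower and 0 to 2 higher for slopes.

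Shares of cells depended on the threshold and the depth. Cells under 100000 reads are left out by thinning. Without those cells and before thinning, Irx1 was found in 66.5% of HZ, 26.6% of HM and 88.9% of Ngn3Cre cells, Irx2 in 61.6% of HZ and 18.2% of HM cells, and Etv1 in 59.2% of Ngn3Cre cells. Thinned to 100000 reads, Irx1 was found in 68.7% of HZ, 34.3% of HM and 91.7% of Ngn3Cre cells, Irx2 in 66.2% of HZ and 24.5% of HM cells, and Etv1 in 62.3% of Ngn3Cre cells. At 20 CPM, 14.6% of HM cells had Irx1 and 10.5% had Irx2. Without cells with neural genes, 90.9, 87.3 and 60.9% of Ngn3Cre cells had Irx1, Irx2 and Etv1. With Gcg at 1000 CPM, the share in Gcg cells minus that in Neurog3 cells was 7.58 points for Irx1, 15.4 for Irx2 and 38.2 for Etv1.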

Other observations

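The lincRNA Gm20554 lies 255 bases from Irx2, on the opposite strand. Its pools held 3.11 to 12.7 CPM in HZ, 0.0737 to 5.13 CPM in HM and 10.8 to 12.1 CPM in Ngn3Cre, below Irx2 in each tested pool. It was found in 12.3% of HZ cells, 3.51% of HM cells and 25.8% of Ngn3Cre cells. Reads near the shared start cannot be assigned with certainty, since the strand setting of the counting is unknown.

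In cells with Fev, the ETS factor of endocrine precursors, at 50 CPM and Gcg under 100 CPM, Etv1 was more common than in the Ghrl cells of low Gcg. Of 50 such cells, 38 had Etv1 (76.0%), 49 had Irx1 and 47 had Irx2, against 35 of 113 cells of all genotypes with Etv1 among the Ghrl cells. The gates overlap and were set after the values were seen, and no test was made.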
